A study of Mus musculus with 4 samples.

Results

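The genes described here encode the PI3K-AKT pathway, the mTOR complexes and the machinery that reports nutrients to mTOR. They were 30 genes named by symbol, and 29 of them had a probe set on the array that was annotated to 1 gene and passed the level filter, among 10501 genes tested. Rps6kb1 was not analysed here. RNA came from CD4+ (helper) T cells of the mouse, started as naive cells from spleen and from peripheral and mesenteric lymph nodes. All cultures ran for 7 days in RPMI medium with 10% serum and the T cell-activating lectin concanavalin A at 2.5 ug/ml, and all received hTGFb1 at 1 ng/ml. The comparison group of 2 arrays had TGFb1 alone, and the other 2 arrays also had progesterone at 2000 ng/ml. No culture without TGFb1 is among these samples, and strain, age and sex of the mice are not given in the sources used here. Nothing in the labels ties replicates to separate animals or cultures, and the spread that p-values measure here may be technical.

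PI3K at the plasma membrane makes a lipid that recruits PDK1 and AKT. AKT inhibits the TSC complex, which otherwise keeps the small GTPase Rheb inactive, and Rheb activates the kinase mTOR in complex 1. Amino acids act through the Rag GTPases, which bring that complex to the lysosome and are restrained by GATOR1, while low energy acts through LKB1 and AMPK. In T cells this pathway couples activation to growth, and its activity is set largely by phosphorylation, which RNA arrays do not measure.

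The arrays differed in ways that bear on all results. The trimmed mean signal was between 108 and 155, lowest in progesterone replicate 2, so signals were quantile normalised, which gives each array the same distribution of values. Across genes, which are not independent replicates, replicate arrays had r = 0.982 with TGFb1 and 0.985 with progesterone, against 0.937 to 0.961 between groups. Of 10 T cell markers tested, including Cd3e and Cd4, none passed the test by limma. An unadjusted p under 0.05 was found for 5, against 24.0% of all genes. Of these Cd4 (log2 difference -0.34), Cd247 (-0.28), Cd2 (-0.21) and Cd5 (-0.21) were lower with progesterone, and Lat (0.28) was higher. Xist had normalised signals of 10.6 and 10.8 with TGFb1 and of 1432 and 1107 with progesterone, while all 3 tested Y-linked genes fell, so the groups also differed in sex-linked transcripts. Of 20 cell cycle genes 16 fell and none rose, and their summed normalised signal was 31281 and 21916 with TGFb1 against 9903 and 7839 with progesterone. Some markers of other cells moved as well. Of 7 myeloid genes 1 rose, Lyz2 (173 and 54.1 against 685 and 771), in a list sum of 1402 to 1669 against 2167 to 2257. Cst3 made up most of that sum and was level (1274 and 1184 against 1245 and 1199). Of the others, which did not pass, Itgam was below 0 (-0.81). Cd68 (0.66), Adgre1 (0.57), Itgax (0.53) and Csf1r (0.17) were above it. Of 5 mast cell and platelet genes 3 rose, all of them platelet genes (Pf4, Ppbp and Itga2b, list sum 998 to 1439 against 1682 to 2124). Neither tested mast cell gene passed, and they differed in sign. Cpa3 was at 965 and 648 against 545 and 719 (-0.33), and Fcer1a at 287 and 190 against 300 and 375 (0.49). Of 4 B cell genes 1 fell, Ighm, which made up most of the list sum (3104 and 3744 of 3238 and 3841, against 1774 and 1817 of 1985 and 1939), and the other 3 had estimates above 0 without passing (Cd79a 0.71, Cd22 0.47 and Cd79b 0.16). Neither the 2 CD8 T cell genes nor the 2 tested NK cell genes passed by limma, with 0 and 2 at an unadjusted p under 0.05. All were below 0, Cd8a at -0.16, Cd8b1 at -0.31, and Klrk1 and Eomes, the NK cell genes, each at -0.76. The list sum of the NK cell genes was 433 and 502 with TGFb1 against 265 and 280 with progesterone. Cd79a, Cd79b, Cd22, Ms4a1, Pax5, Adgre1, Cd14, Itgax, Cd8a, Ncr1, Klre1 and Mcpt4 stayed under a normalised signal of 60 on every array. So did Ppbp, which is among the platelet genes that rose. In bulk RNA, fewer cells of a type and less RNA per cell cannot be told apart. The sex-linked transcripts split exactly as the groups do, so the sex of the cells and progesterone cannot be told apart, and the part of cell cycle and other cells in the values below was not tested. Signals of the 3′ and 5′ probe sets of Actb, a check of RNA integrity, stood in ratios of 1.23 to 1.25 with TGFb1 and 1.29 to 1.32 with progesterone, and those of Gapdh at 0.71 to 0.748 and 0.69 to 0.697.

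Differences in RNA level between cultures with and without progesterone were no more frequent in this pathway than among all genes tested. Whether the pathway differs from all genes was not tested. All differences are log2 differences of log2(signal + 16), progesterone minus TGFb1 alone, with limma's standard error (SE) and 2 arrays per group (n = 2), and this scale understates the change of dim genes. Of the 29 genes, 1 rose (Flcn) and none fell at an adjusted p under 0.05, where 8.16% of all genes tested passed, 2.99% as rises and 5.17% as falls. At an unadjusted p under 0.05 the count was 6 of 29, against 24.0% of all genes. The median difference was 0.0031 over the 29 genes and 0.022 over all genes, and the median size regardless of sign was 0.18 and 0.20. Differences ran from -0.54 (Tbc1d7) to 0.49 (Flcn), with 15 above 0 and 14 below.

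The 95% intervals give the range of differences that these arrays leave possible under one scaling and pseudocount. For 28 of the 29 genes the interval lay within a 2-fold change either way, against 85.1% of all genes, and for 17 it lay within 1.5-fold, against 48.9%. The exception at 2-fold was Tbc1d7, whose interval reached -1.04. As deposited the count was 21, against 73.8% of all genes, and the intervals of Akt1, Eif4e, Eif4ebp1, Nprl2, Pik3cd, Rheb, Tbc1d7 and Ulk1 went past 2-fold. Over the other alternatives that tested 29 genes it was 26 to 29. The groups did not overlap for 13 of the 29 genes, against 55.8% of all genes, 9 higher and 4 lower with progesterone, against 29.8% and 26.0% of all genes. The difference was larger than the larger gap between replicates for 11 of 29, against 43.1% of all genes.

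**Figure D1:**
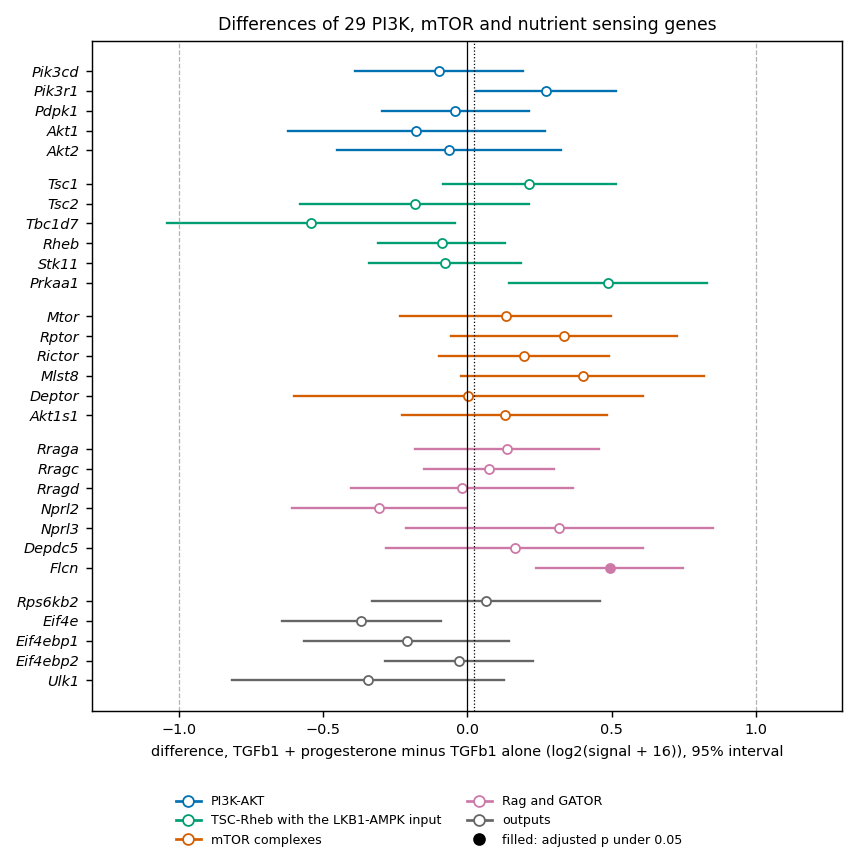
Log2 difference, TGFb1 plus progesterone minus TGFb1 alone, for the 29 genes by tier; points are estimates, lines 95% limma intervals (n = 2 arrays per group), the dotted line the median of all genes tested and the dashed lines a 2-fold change. Flcn, the filled point at 0.49, is the gene that passed the test, and Tbc1d7 at -0.54 is the gene whose interval crosses a dashed line.

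Of the 29 genes 6 had a 95% interval that left out 0, which equals an unadjusted p under 0.05, found for 24.0% of all genes. Flcn, Prkaa1 and Pik3r1 were above 0 and Eif4e, Nprl2 and Tbc1d7 below, and only Flcn passed the adjusted test. The 250 bases before each annotated start of these genes are shown, in order of p. They are from RefSeq (build GRCm38.p6), 5′ to 3′ on the strand of the gene, and Eif4e and Pik3r1 have 2 starts each, called A and B. The windows are Flcn at chr11:59810040-59810289 (minus strand), Prkaa1 at chr15:5143611-5143860 (plus strand), Eif4e start A at chr3:138525941-138526190 (plus strand), Eif4e start B at chr3:138527018-138527267 (plus strand). The others are Pik3r1 start A at chr13:101692631-101692880 (minus strand), Pik3r1 start B at chr13:101768218-101768467 (minus strand), Tbc1d7 at chr13:43171502-43171751 (minus strand) and Nprl2 at chr9:107541959-107542208 (plus strand). Capitals mark a motif: TGACGTCA in Flcn, the cAMP response element to which CREB and ATF factors bind; CACGTG in Eif4e start B and Tbc1d7, the E-box to which Myc and the TFEB family bind; and ACANNNTGT in Nprl2, the core of the element to which progesterone and glucocorticoid receptors bind. The windows of Prkaa1 and Pik3r1 and start A of Eif4e held none of the motifs searched.
Flcn: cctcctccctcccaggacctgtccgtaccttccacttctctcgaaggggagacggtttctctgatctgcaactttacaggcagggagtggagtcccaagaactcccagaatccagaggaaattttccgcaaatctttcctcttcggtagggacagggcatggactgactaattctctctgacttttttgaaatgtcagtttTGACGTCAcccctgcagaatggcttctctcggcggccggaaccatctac
Prkaa1: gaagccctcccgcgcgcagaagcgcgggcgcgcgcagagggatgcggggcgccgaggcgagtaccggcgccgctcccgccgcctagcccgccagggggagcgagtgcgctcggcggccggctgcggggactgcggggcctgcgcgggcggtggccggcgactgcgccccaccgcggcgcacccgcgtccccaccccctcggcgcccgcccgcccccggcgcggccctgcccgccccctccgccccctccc
Eif4e, start A: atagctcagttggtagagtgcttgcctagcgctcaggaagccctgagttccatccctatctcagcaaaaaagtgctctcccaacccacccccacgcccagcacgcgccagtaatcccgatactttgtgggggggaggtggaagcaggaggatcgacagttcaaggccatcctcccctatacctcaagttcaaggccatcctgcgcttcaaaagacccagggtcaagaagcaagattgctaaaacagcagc
Eif4e, start B: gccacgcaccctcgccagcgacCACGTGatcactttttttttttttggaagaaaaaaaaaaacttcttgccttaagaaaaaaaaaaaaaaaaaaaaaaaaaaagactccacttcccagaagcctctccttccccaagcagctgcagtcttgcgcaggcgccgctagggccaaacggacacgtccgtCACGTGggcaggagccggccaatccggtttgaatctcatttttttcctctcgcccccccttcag
Pik3r1, start A: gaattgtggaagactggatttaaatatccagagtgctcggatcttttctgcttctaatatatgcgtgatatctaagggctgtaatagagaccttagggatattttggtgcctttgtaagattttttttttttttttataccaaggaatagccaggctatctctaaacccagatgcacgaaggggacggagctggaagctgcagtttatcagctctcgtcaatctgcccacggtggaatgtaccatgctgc
Pik3r1, start B: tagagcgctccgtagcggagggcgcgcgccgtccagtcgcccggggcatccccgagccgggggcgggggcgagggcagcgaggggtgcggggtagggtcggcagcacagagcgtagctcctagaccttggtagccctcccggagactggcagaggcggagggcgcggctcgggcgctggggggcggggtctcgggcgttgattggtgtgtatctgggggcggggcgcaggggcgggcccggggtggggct
Tbc1d7: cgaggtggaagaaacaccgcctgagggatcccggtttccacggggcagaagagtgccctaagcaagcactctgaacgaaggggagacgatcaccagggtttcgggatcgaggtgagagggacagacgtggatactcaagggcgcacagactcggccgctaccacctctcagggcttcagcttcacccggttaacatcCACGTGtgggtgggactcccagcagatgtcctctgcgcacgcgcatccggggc
Nprl2: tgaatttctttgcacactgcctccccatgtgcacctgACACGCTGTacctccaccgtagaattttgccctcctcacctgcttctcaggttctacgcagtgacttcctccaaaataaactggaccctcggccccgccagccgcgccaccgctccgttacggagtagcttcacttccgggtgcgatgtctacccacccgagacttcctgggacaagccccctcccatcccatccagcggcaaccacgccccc
The table held promoters for 27 of the 30 genes, 36 windows in all. Both strands were searched for 4 motifs, and no 2 motifs shared a window. CACGTG was in 4 of the 36 windows, against 6.02% of all 32851 promoters, and these belonged to 4 genes. It began 228 and 64 bases before start B of Eif4e, 112 before Rragc, 96 before Rheb and 53 before Tbc1d7. The differences of these 4 genes were -0.37, 0.077, -0.088 and -0.54. Those of Rragc (SE 0.096) and Rheb (SE 0.094) were smaller than their SE. As deposited that of Rragc, the 1 above 0, was at -0.29, where the median of all genes was -0.22. Whether motif and difference are linked was not tested. TGACGTCA was in 1 window, Flcn's, beginning 49 bases before the start (1.55% of all promoters). ACANNNTGT was in 1 window, that of Nprl2, beginning 213 bases before the start (5.84% of all), and the forkhead motif TGTTTAC, to which FOXO factors bind, in 1 window of Akt1 (3.17% of all). A match is only a run of letters, and its absence concerns only these windows.

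Among the genes of the PI3K-AKT tier none passed the test, and 1 of 5 had an unadjusted p under 0.05. Pik3cd, the delta catalytic subunit of PI3K that predominates in leukocytes, had normalised signals of 911 and 1148 with TGFb1 and 959 and 949 with progesterone. Both progesterone values lay between the TGFb1 values, and the difference was -0.099 ± 0.12 (SE; adjusted p = 0.672). Pik3r1, the regulatory subunit that stabilises the catalytic one, had signals of 827 and 943 against 1051 and 1090.2. Its groups did not overlap, but the difference of 0.27 ± 0.10 did not pass (adjusted p = 0.167). The AKT kinase genes spread between replicates more than between groups. Akt1 was at 466 and 662 with TGFb1 and 428 and 561 with progesterone (-0.18 ± 0.19), and Akt2 at 371 and 472 against 353 and 453 (-0.062 ± 0.17). Pdpk1, encoding the kinase that phosphorylates AKT in its activation loop, was at 945 and 839 against 911 and 821 (-0.041 ± 0.11). Adjusted p-values in this tier ran from 0.167 to 0.859.

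The TSC-Rheb tier, taken with the energy sensor LKB1-AMPK that acts on it, held the lowest estimate and the second highest of the 29 genes, and none of its 6 genes passed (2 with an unadjusted p under 0.05). Tbc1d7, the third subunit of the TSC complex, had normalised signals of 103 and 87 with TGFb1 and 49.6 and 72.1 with progesterone. Both progesterone arrays were lower, and the difference was -0.54 ± 0.21 (adjusted p = 0.18). The other TSC subunits had differences of 0.21 ± 0.13 for Tsc1 and -0.18 ± 0.17 for Tsc2, which carries the GTPase-activating domain. Tsc1 was higher in both progesterone arrays (275 and 282, against 248 and 227), whereas Tsc2 was lower in progesterone replicate 1 (124) and level with TGFb1 in the other (164, against 164 and 165). Rheb, the GTPase that the complex inactivates, was at 1196 and 1140 against 1140 and 1057 (-0.088 ± 0.094). Prkaa1, the alpha1 catalytic subunit of AMPK, had signals of 122 and 138 with TGFb1 and 188 and 189 with progesterone. Its groups were well separated, a difference of 0.49 ± 0.15, and the adjusted p was 0.0938. Prkaa1 was also the gene of the 29 that was higher on both progesterone arrays in the signals as deposited (131 and 145 against 193 and 154), as were 10.4% of all genes. Stk11, which encodes the AMPK-activating kinase LKB1, was at 478 and 530 against 477 and 475 (-0.077 ± 0.11).

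The 6 mTOR complex genes all had estimates above 0, by 0.0031 to 0.40, with none passing the test and none at an unadjusted p under 0.05. Among all genes 5580 of 10501 had estimates above 0, and of 8 further mTOR complex genes tested 4 were above 0 and 4 below. Mtor, the kinase shared by both complexes, was at 215 and 274 with TGFb1 and 252 and 285 with progesterone, which overlap (0.13 ± 0.16, adjusted p = 0.648). Rptor, the scaffold that defines complex 1, was at 114 and 144 against 158 and 175 (0.34 ± 0.17, adjusted p = 0.269). Rictor, the corresponding subunit of complex 2, was at 337 and 297 against 376 and 355 (0.20 ± 0.13), and Mlst8, a subunit of both, at 71.1 and 80.6 against 114 and 96.3 (0.40 ± 0.18, adjusted p = 0.23). The progesterone arrays were higher without overlap for Rptor, Rictor and Mlst8, as they were for 29.8% of all genes. The inhibitory subunit genes were Akt1s1, at 0.13 ± 0.15, and Deptor, at 0.0031 ± 0.26 with a dim signal of 20.8 to 30.02 on the 4 arrays. The shared sign of this tier depended on the probe sets and on scaling. Mtor (-0.35), Rptor (-0.42), Rictor (-0.36) and Mlst8 (-0.074) each had another probe set below 0, which was dim for Mtor (24.7 to 48.2) and Rptor (20.7 to 37.9). With the signals as deposited 3 of the 6 genes were above 0.

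The Rag and GATOR tier, which carries the amino acid signal, held the gene that rose. Flcn encodes folliculin, which with its FNIP partners acts as a GTPase-activating protein on RagC and RagD. Its normalised signals were 422 and 442 with TGFb1 and 632 and 596 with progesterone. The groups did not overlap, and the difference was 0.49 ± 0.11, a 1.41-fold rise with an adjusted p = 0.0336. A second probe set of Flcn had a difference of 0.42 (adjusted p = 0.102 over the 22518 probe sets kept, where the probe set used had 0.0468). In the signals as deposited the groups overlapped, at 483 and 478 with TGFb1 and 626 and 459 with progesterone, and the difference was 0.15 (adjusted p = 0.773). Leaving out an array also ended the call for TGFb1 replicate 1 (adjusted p = 0.0621), progesterone replicate 1 (0.239) and progesterone replicate 2 (0.222), as did other settings given in the closing section.

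The other members of that tier did not pass, and 2 of the 7 genes, Flcn included, had an unadjusted p under 0.05. Nprl2, a GATOR1 subunit, was at 336 and 390 with TGFb1 and 287 and 293 with progesterone, lower in both progesterone arrays (-0.31 ± 0.13, adjusted p = 0.203). The other GATOR1 subunits had estimates of the opposite sign with overlapping groups, 0.32 ± 0.23 for Nprl3 (114 and 171 against 150 and 212) and 0.16 ± 0.19 for Depdc5 (98.2 and 108 against 99.8 and 137). The Rag GTPase genes lay close to 0. Rraga was at 191 and 215 against 223 and 227 (0.14 ± 0.14), Rragc at 812 and 826 against 886 and 843 (0.077 ± 0.096) and Rragd at 362 and 262 against 308 and 300.1 (-0.019 ± 0.17). Rragc shows how scaling set the order of the groups: it was higher in both progesterone arrays after normalisation, and lower in both as deposited (942 and 899 against 874 and 641).

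Of the genes for what mTOR complex 1 acts on, none of 5 passed and 1 had an unadjusted p under 0.05. Eif4e, the cap-binding protein that the 4E-BP proteins hold inactive, had normalised signals of 909 and 796 with TGFb1 and 700.3 and 614 with progesterone. Both progesterone arrays were lower, the difference was -0.37 ± 0.12 (adjusted p = 0.111), and all 3 of its probe sets above the filter were below 0 (-0.52, -0.37 and -0.20). Under centring of each array on its median it passed as a fall (-0.56, adjusted p = 0.0454), and as deposited it was at -0.74 (adjusted p = 0.0633). The 4E-BP genes overlapped between groups, Eif4ebp1 at 451 and 343 against 351 and 326 (-0.21 ± 0.15) and Eif4ebp2 at 998 and 1187 against 1060.4 and 1072 (-0.030 ± 0.11). Ulk1, the autophagy kinase that mTOR complex 1 inhibits, was at 208 and 308 against 176 and 218 (-0.35 ± 0.20, adjusted p = 0.347), and Rps6kb2, encoding the ribosomal protein S6 kinase S6K2, at 126 and 162 against 156 and 144 (0.064 ± 0.17).

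**Figure D2:**
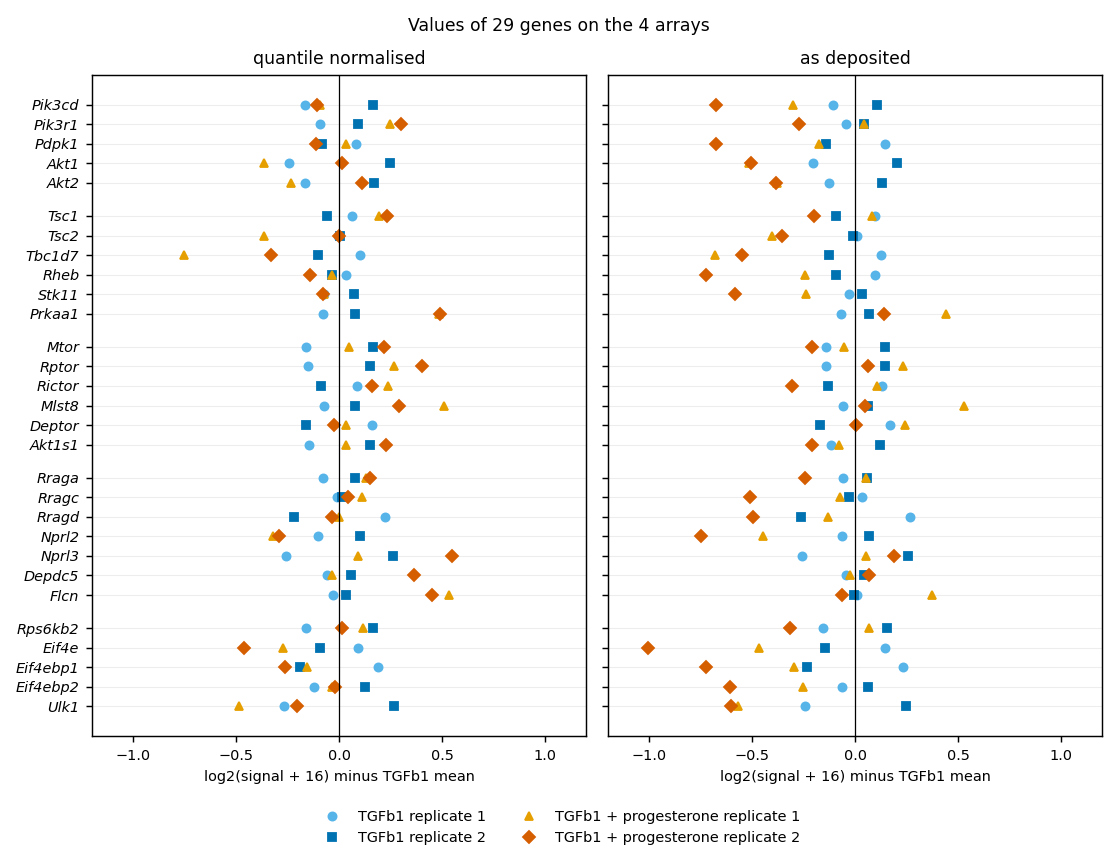
log2(signal + 16) of the 29 genes on each of the 4 arrays, relative to the mean of the 2 TGFb1 arrays, after quantile normalisation (left) and as deposited (right). After normalisation both progesterone points of Flcn and Prkaa1 lie right of both TGFb1 points and those of Eif4e, Nprl2 and Tbc1d7 lie left; as deposited most progesterone points lie left of 0.

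Probe sets of one gene often differed in sign, a count that takes no account of signal level or SE. The 29 genes had 82 probe sets annotated to 1 gene, of which 63 passed the level filter, and 1 of these, of Flcn, passed the test over all probe sets, where 5.99% passed. Among 18 genes with more than 1 probe set above the filter, 11 had at least 1 with the opposite sign to the brightest: Pik3cd, Pik3r1, Pdpk1, Akt1, Mtor, Rptor, Rictor, Mlst8, Depdc5, Eif4ebp1 and Eif4ebp2. The widest spread was that of Pik3cd, from -0.24 to 0.66, followed by Rptor, from -0.42 to 0.34. Some probe sets of opposite sign were dim, as for Rptor (20.7 to 37.9), or near 0, as for Pdpk1 (0.067 ± 0.17). Those of Pik3cd were at 0.52 and 0.66. The other 7, which include Eif4e, Ulk1 and Flcn, had all such probe sets on 1 side of 0.

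**Figure D3:**
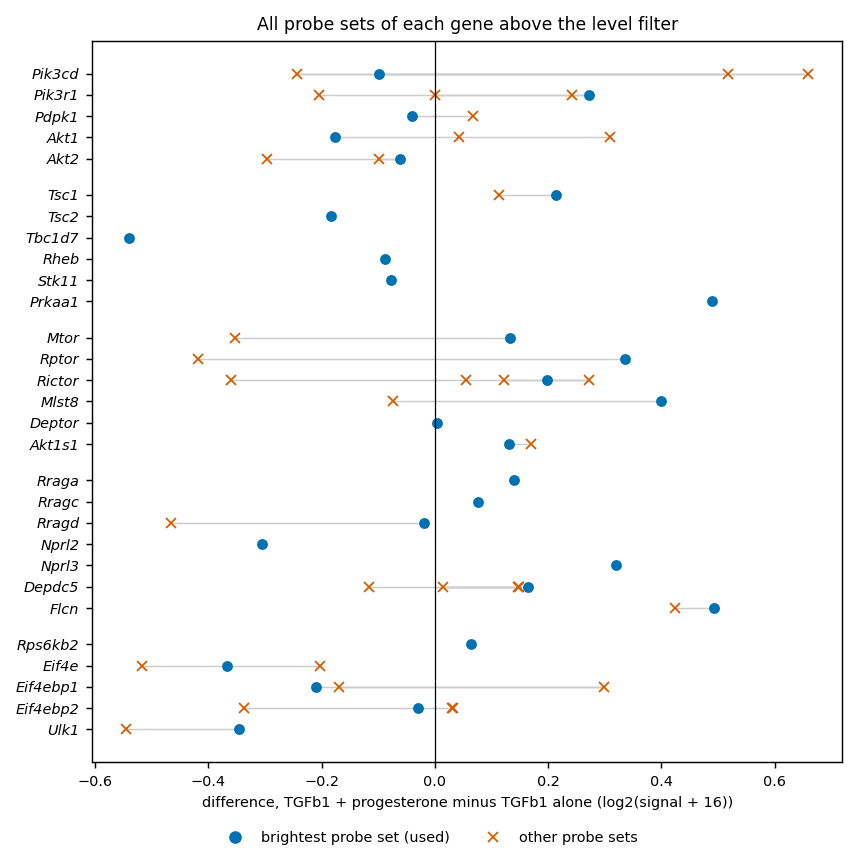
Log2 difference, TGFb1 plus progesterone minus TGFb1 alone, of every probe set above the level filter for the 29 genes; filled points mark the brightest probe set, which was used, and crosses the others. For 11 genes the line between probe sets crosses 0, while for Eif4e, Ulk1 and Flcn it does not.

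Scaling moved the whole set with the rest of the array. The median difference of the 29 genes was 0.0031 after quantile normalisation (all genes 0.022), -0.11 after centring each array on its median (all genes -0.035) and -0.29 as deposited (all genes -0.22). Estimates below 0 numbered 14, 15 and 22 of 29. As deposited, 14 of 29 genes were lower in both progesterone arrays without overlap, against 45.0% of all genes. The tiers kept their order at the ends under the 3 scalings: the median of the mTOR complex genes was highest (0.17, 0.19 and 0.011) and that of the outputs lowest (-0.21, -0.33 and -0.51). That order was not tested, and neither end held throughout. When a gene's probe sets were averaged the highest median was that of the Rag and GATOR genes (0.077, the complexes 0.030) and the lowest that of the TSC-Rheb tier (-0.083, the outputs -0.076). Without TGFb1 replicate 1 the PI3K-AKT tier was lowest (-0.23, the outputs -0.15).

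**Figure D4:**
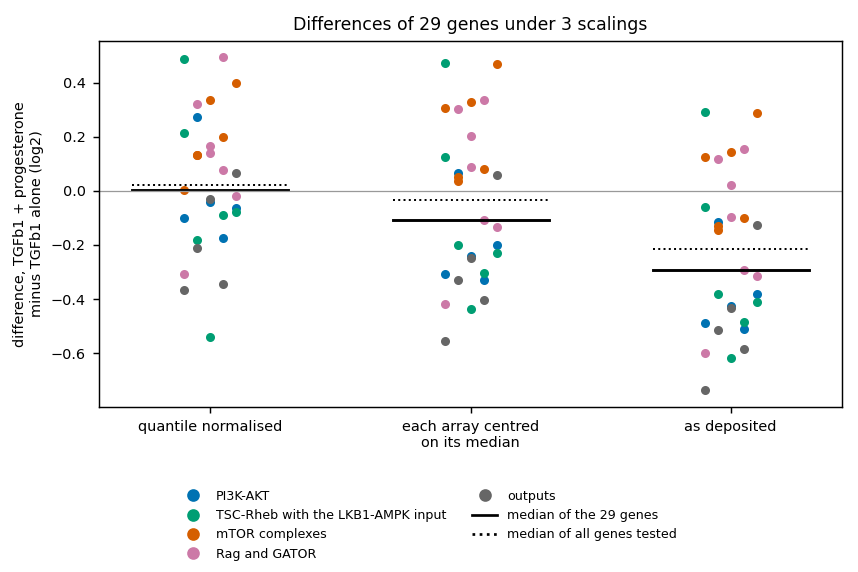
Log2 difference of each of the 29 genes (points, coloured by tier) under 3 scalings; the solid line is their median and the dotted line the median of all genes tested. Both medians move down together, from 0.0031 and 0.022 after quantile normalisation to -0.29 and -0.22 as deposited.

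Further genes of the pathway came from a list of 91. Of 77 tested, 1 rose (Foxo1) and none fell, against 8.16% of all genes in either direction. At an unadjusted p under 0.05 there were 15, against 24.0% of all genes. The median was 0.076, against 0.022 over all genes. Foxo1, the transcription factor that AKT excludes from the nucleus, was at normalised signals of 1398 and 1360.3 with TGFb1 and 1845 and 1764 with progesterone. Its groups did not overlap, and it rose by 0.38 ± 0.085 (adjusted p = 0.0336). The other Foxo1 probe sets above the filter were at 0.14 and 0.087, as deposited it was at -0.048 and when centred at 0.13 (adjusted p = 0.466). The call held in 7 of 15 alternative fits, and was lost without either progesterone array (adjusted p = 0.265 and 0.251).

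In the remaining tiers of that list the genes with the largest statistics did not pass. Igf1r, a growth factor receptor upstream of PI3K, was at 263 and 423 against 549 and 579 (0.73 ± 0.20, adjusted p = 0.0731), with its 5 probe sets above the filter between 0.33 and 0.73. The phosphatase gene Inpp4b was at 0.27 ± 0.084 (adjusted p = 0.0994). The AMPK subunit genes Prkag2 (0.27) and Prkab1 (0.16), the Ragulator gene Lamtor3 (0.41), the GATOR2 gene Wdr59 (-0.38), the chaperone gene Ruvbl2 (-0.34) and Fkbp1a (0.29), which encodes the rapamycin-binding protein, had adjusted p-values of 0.129 to 0.43. Rps6, the S6 kinase substrate, singled out after its value was seen, was at 236 and 216 against 153 and 139 (-0.58 ± 0.14, adjusted p = 0.0509).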

How the data were processed

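The authors deposited linear signal intensity per probe set; the submitters' processing notes name MAS5 as the method, with no version or scaling target. No detection call was used. Arrays whose trimmed means (2% off each end) lay more than 5% apart were to be quantile normalised; the highest over the lowest was 1.43. The 64 control probe sets were left out, log2(signal + 16) was taken, and probe sets with a mean above the median were kept (22518 of 45037). Symbols came from the platform annotation through Entrez identifiers in RefSeq (GRCm38.p6), where 34741 of 34945 probe sets with 1 gene matched. Each gene was represented by its probe set with the highest mean. Groups were compared with limma 3.58.1 in R 4.3.3 (eBayes with an intensity trend, 2 residual degrees of freedom), adjusted by Benjamini-Hochberg over all 10501 genes. The test was tried on simulated data first. All 29 tested members are named; of the other pathway genes, those that passed, or otherwise the 2 per tier with the largest moderated statistic. The members, the tiers and the lists were chosen with earlier results of these data known. Alternatives changed the pseudocount, scaling, filter, variance model, probe set choice, threshold, replicate block and arrays. The number of arrays limits the precision.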

Additional observations from a re-analysis of the deposited data

How the results depend on the processing

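The call of Flcn held in 7 of 15 alternative fits, and its adjusted p ran from 0.00357 to 0.773. It was the call that made up the count of 1 member, which became 0 with the values as deposited, with no filter, with eBayes without a trend, without _x_at and _s_at probe sets and at a threshold of 0.01, 2 at a threshold of 0.10 (with Prkaa1), and ran from 0 to 1 when an array was left out. With each array centred on its median the member that passed was Eif4e. The 857 genes changed (314 up, 543 down) became 939 as deposited (145 up, 794 down), 1012 when centred (230 up, 782 down), 488 with no filter, 464 without a trend, 308 and 1362 at thresholds of 0.01 and 0.10, and 234 to 1155 when an array was left out, lowest without progesterone replicate 2 and 385 without progesterone replicate 1. The count of 1 other pathway gene became 0 with no filter, without a trend and at 0.01, 2 with a pseudocount of 64 and with robust eBayes (Foxo1 and Rps6), when centred (Eif4b and Rps6) and when a gene's probe sets were averaged (Rps6 and Lpin1), 4 at 0.10, and 0 to 3 when an array was left out. It was 1 as deposited and without _x_at and _s_at probe sets, but there the gene was Rps6, as a fall, and not Foxo1. The median of the members moved to -0.29 as deposited and -0.11 when centred, and ran from -0.017 to 0.094 when an array was left out. Rps6 and Foxo1 each passed in 7 of 15 fits. With the replicate number as a block, 1936 genes, 3 members (Eif4e, Flcn and Prkaa1) and 9 other pathway genes passed; deviations of same-numbered arrays correlated at 0.21, but with 2 pairs and no label for a shared batch the arrays share only a number.

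Of the 29 members, 8 changed sign as deposited: Pik3r1 (-0.11), Tsc1 (-0.059), Mtor (-0.13), Rictor (-0.10), Akt1s1 (-0.14), Rraga (-0.095), Rragc (-0.29) and Rps6kb2 (-0.12). So did Inpp4b (-0.16), Prkag2 (-0.0013), Prkab1 (-0.16), Fkbp1a (-0.12) and Foxo1 (-0.048). Rragc changed sign when centred (-0.11), Deptor with a pseudocount of 64 (-0.00069), Fkbp1a without _x_at and _s_at probe sets (-0.14), and Pik3cd (0.21), Pdpk1 (0.013), Akt1 (0.058), Mtor (-0.11) and Rptor (-0.042) when a gene's probe sets were averaged. When an array was left out, signs turned for Pik3cd (-0.26 to 0.066), Pdpk1 (-0.12 to 0.043), Akt1 (-0.42 to 0.070), Akt2 (-0.23 to 0.11), Mtor (-0.030 to 0.30), Deptor (-0.16 to 0.16), Akt1s1 (-0.017 to 0.28), Rragd (-0.24 to 0.20), Depdc5 (-0.037 to 0.36), Rps6kb2 (-0.099 to 0.23) and Eif4ebp2 (-0.15 to 0.094), none of which passed in any such fit. A pseudocount of 0 and the robust model turned no sign. Where an array was left out, the remaining one was taken to vary as the other group does. Dim signals such as that of Deptor limit what could be seen.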
